A study of Mus musculus with 6 samples.

Results

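Expression of 29 genes of cholesterol synthesis and its control by the sterol regulatory element-binding proteins (SREBPs) was examined in newborn mouse cortex. The genes were taken by name from a list of pathway enzymes, SREBP regulators and sterol transport genes, and all 29 were found among the 53379 genes of the count table. Of these, 19 encode enzymes, 5 encode SREBPs and the proteins that hold or escort them, and 5 act in sterol transport or in the liver X receptor (LXR) arm. The samples were 3 libraries of Npas3+/- cortex, from mice with 1 disrupted copy of the gene for the transcription factor Npas3, and 3 libraries of wild-type (WT) cortex. Both genotypes were of the strain C57BL/6 and were taken at postnatal day 0, as whole cortex, with total RNA sequenced in bulk. How the Npas3 allele was made, the sex of the mice and the number of animals behind a library are not stated in the sources at hand, so p-values measure the spread between these libraries, which may be technical.

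Cholesterol is built from acetyl-CoA through mevalonate, which is turned into isoprenoid diphosphates. Farnesyl diphosphate is joined head to head into squalene, squalene is closed into lanosterol, and lanosterol is trimmed and reduced to cholesterol. SREBPs are membrane-bound transcription factors of the endoplasmic reticulum that Scap escorts to the Golgi for cleavage when sterols are scarce, while the Insig proteins hold Scap back when sterols are plentiful. The brain makes its own cholesterol, because lipoproteins of the blood hardly cross the blood-brain barrier, and newborn neurons and glia need it for membranes.

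Total counts ran from 75540885 to 87811574 in the Npas3+/- libraries and from 67378231 to 83256308 in the WT libraries. Npas3 itself stood at 15.0, 14.1 and 8.61 CPM (read counts scaled to library depth) in Npas3+/- replicates 1 to 3, against 23.4, 28.4 and 25.7 CPM in WT replicates 1 to 3. The genotypes did not overlap, and the Npas3+/- mean was 48.6% of the WT mean. On the first principal component of all genes tested, with 28.0% of the variance, Npas3+/- replicate 3 scored 23.0, inside the WT range of 10.8 to 47.7, and the other Npas3+/- libraries scored -65.9 and -44.1. Xist, the RNA of the inactive X chromosome, reached 3667 CPM in Npas3+/- replicate 2 and at most 2.02 CPM in each of the other 5 libraries. Markers of cortical projection neurons summed to 2327 to 3195 CPM in Npas3+/- and 2295 to 2550 CPM in WT, and the liver marker Alb was at 0 in all 6 libraries.

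The cholesterol genes stood a little higher in Npas3+/- cortex, and none passed the test across all genes. Of the 29 genes, 27 had a log2 fold change (Npas3+/- over WT) above 0, and their median was 0.16. Over all 21244 genes tested, 48.2% lay above 0 and the median was -0.01. All 29 passed the filter on low counts. By edgeR's quasi-likelihood test, 0 of 29 had an adjusted p under 0.05, against 0.0377% (8) of all genes tested in either direction and 0.0282% on the higher side, and the lowest adjusted p among them was 0.27. At an unadjusted p under 0.05 there were 10 of 29, all higher in Npas3+/-, against 6.29% of all genes on the higher side and 5.84% on the lower. In 11 of 29 the 3 Npas3+/- libraries all lay above the 3 WT libraries and in none all below, against 9.7% of all genes on the higher side. DESeq2 gave an adjusted p under 0.05 to 3 of 29 (Srebf2, Mvd and Stard4), all higher, against 1.73% on the higher side, and 3.17% in either direction, of the 15461 genes to which it gave an adjusted p. The list was chosen with earlier results of these data known, so its shares are not independent of these data. These counts describe the list, and no test of the list as a whole was made.

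Without Npas3+/- replicate 2, the library with high Xist, all 29 genes lay above 0, 11 did not overlap between genotypes and 7 had an unadjusted p under 0.05, against 8.15% of all genes in either direction. Without Npas3+/- replicate 3, the library inside the WT range on the first component, 28 lay above 0, 15 did not overlap and 12 had an unadjusted p under 0.05, against 13.7% of all genes in either direction. With 5 libraries separation is more common, and 26.6% and 33.4% of all genes did not overlap in either direction in those fits.

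**Figure D1:**
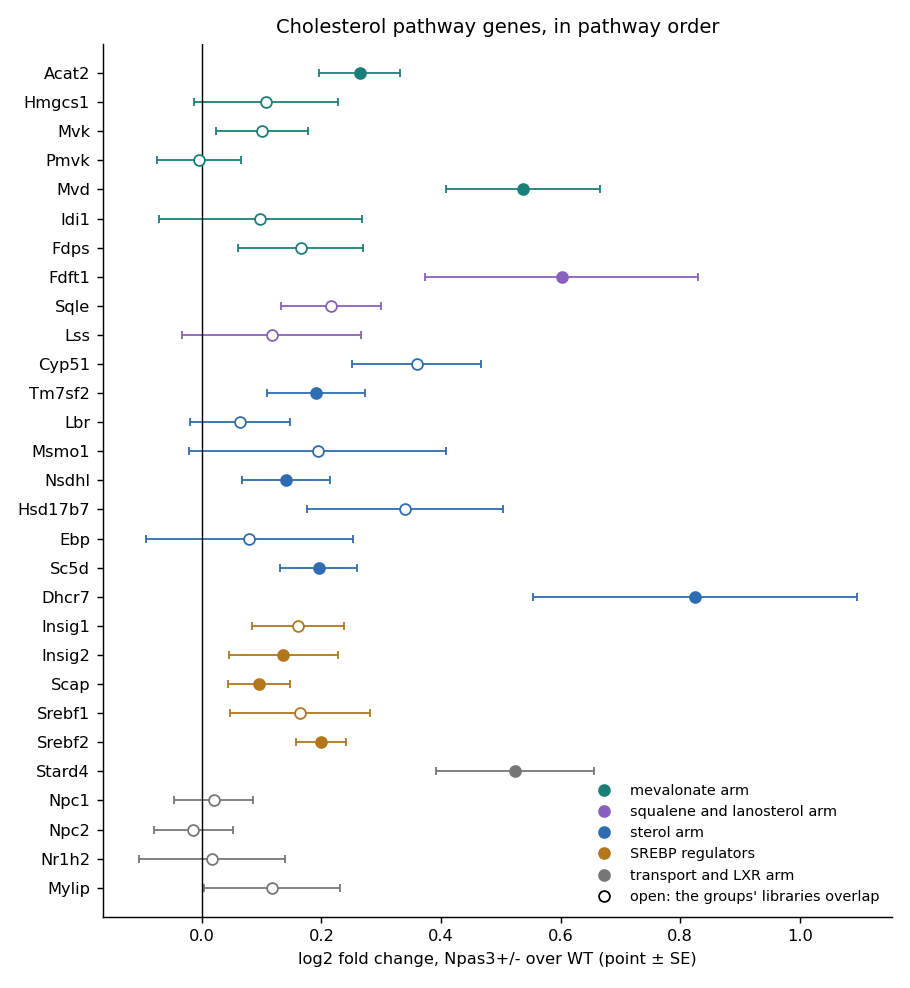
Log2 fold change (Npas3+/- over WT, point ± SE) of the 29 genes in pathway order, coloured by arm, with open points where libraries of the genotypes overlap. Pmvk and Npc2 lie below 0, and Dhcr7 (0.82), Fdft1 (0.60), Mvd (0.54) and Stard4 (0.52) lie farthest to the right.

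SREBPs bind sterol regulatory elements in promoters together with factors at CCAAT and GC boxes. The bases upstream of the RefSeq start are shown for Srebf2, Mvd, Acat2 and Cyp51, the genes with the smallest p-values that have an entry in the promoter table. They are given on the strand of the gene, 5′ to 3′. Hmgcs1 was added after its letters were seen, because it alone held the longer element. Capitals mark TCACNCCA, the core of the element, on either strand, and CCAAT on either strand (read as ATTGG where it lies on the other strand). The windows are the 250 bases before the start in GRCm38.p6, at chr15:82147019-82147268 (plus strand, Srebf2), chr8:122443423-122443672 (minus strand, Mvd), chr17:12960726-12960975 (minus strand, Acat2), chr5:4104698-4104947 (minus strand, Cyp51) and chr13:119690101-119690350 (plus strand, Hmgcs1).
Srebf2: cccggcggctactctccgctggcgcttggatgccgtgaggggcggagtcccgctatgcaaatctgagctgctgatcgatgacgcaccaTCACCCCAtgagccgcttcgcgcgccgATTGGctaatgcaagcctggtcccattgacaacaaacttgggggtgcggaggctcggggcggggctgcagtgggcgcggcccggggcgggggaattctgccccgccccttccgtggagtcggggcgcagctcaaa
Mvd: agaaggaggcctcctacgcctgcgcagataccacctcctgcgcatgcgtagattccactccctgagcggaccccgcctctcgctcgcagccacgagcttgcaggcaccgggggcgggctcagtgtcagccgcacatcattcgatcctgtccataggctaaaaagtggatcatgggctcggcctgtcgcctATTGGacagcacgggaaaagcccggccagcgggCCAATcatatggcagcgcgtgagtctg
Acat2: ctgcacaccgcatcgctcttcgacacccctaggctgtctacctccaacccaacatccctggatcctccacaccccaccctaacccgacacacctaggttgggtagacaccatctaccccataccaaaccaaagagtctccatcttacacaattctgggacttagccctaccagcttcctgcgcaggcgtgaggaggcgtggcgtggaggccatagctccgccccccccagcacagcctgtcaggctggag
Cyp51: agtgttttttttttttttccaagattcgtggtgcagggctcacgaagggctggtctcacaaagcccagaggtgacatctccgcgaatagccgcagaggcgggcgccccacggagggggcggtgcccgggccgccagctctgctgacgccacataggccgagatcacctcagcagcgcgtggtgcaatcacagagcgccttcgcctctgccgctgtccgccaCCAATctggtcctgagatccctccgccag
Hmgcs1: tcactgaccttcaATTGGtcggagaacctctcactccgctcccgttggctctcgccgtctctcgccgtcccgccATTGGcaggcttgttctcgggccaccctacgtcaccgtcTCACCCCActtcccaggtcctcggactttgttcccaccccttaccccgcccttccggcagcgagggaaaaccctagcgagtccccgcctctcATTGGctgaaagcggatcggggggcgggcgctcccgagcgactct
The Srebf2 window held the core element with its first base at -162 and a CCAAT box on the other strand at -135. The Mvd window held CCAAT boxes at -60 and -27, the Cyp51 window held 1 at -29, and the Acat2 window held none of the letters marked. Hmgcs1 held the element TCACNCCAC at -137 and CCAAT boxes at -237, -176 and -45.

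Windows from 250 bases before to 50 bases after the start were in the table for 24 of the 29 genes; Fdps, Fdft1, Sqle, Stard4 and Npc1 had no entry. Letters were searched on both strands. Each of the 24 genes counts once, by the window nearest its annotated gene start, of 32 windows in the table. The shares of all windows and of genes tested count every window, so the choice of windows differs. TCACNCCAC lay in 1 of 24 (Hmgcs1), against 1.24% of all 32851 windows and 1.20% of the 16757 windows of genes tested. The core TCACNCCA, chosen after the letters were seen and contained in the longer element, lay in 3 of 24 (12.5%: Hmgcs1, Msmo1 and Srebf2), against 4.36% of all windows and 3.99% of those of genes tested. CCAAT lay in 20 of 24 (83.3%), against 37.4% of all windows and 37.1% of those of genes tested. The GC box GGGCGG also lay in 83.3%, against 35.7% of all windows and 57.1% of those of genes tested. The E-box CACGTG lay in 4 of 24 (16.7%), against 7.15% of all windows and 9.14% of those of genes tested. These are exact matches of letters and say nothing of which factor was bound. An element that departed from these letters was not counted, so a window without a match may still hold a variant.

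The mevalonate arm runs from acetyl-CoA to farnesyl diphosphate, and 6 of its 7 genes lay above 0, with a median log2 fold change of 0.11. Acat2 (ENSMUSG00000023832.13, chromosome 17, 12942890 to 12960747), the cytosolic thiolase that opens the pathway, stood at 228, 224 and 211 CPM in Npas3+/- cortex, against 201, 173 and 179 CPM in WT cortex. All Npas3+/- libraries lay above all WT libraries. Its log2 fold change was 0.26 (SE 0.07), with an adjusted p of 0.276 by edgeR's quasi-likelihood test and 0.0587 by DESeq2. The count of Acat2 is uncertain, because 39.1% of the 50-base windows of its transcripts also lay in transcripts of Acat3 and 11.2% in those of Tcp1. Acat2 and Acat3 summed to 233 ± 10.5 CPM in Npas3+/- and 199 ± 12.5 CPM in WT (SD, n = 3 each), a log2 difference of 0.23. With all of Tcp1 added, the 3 genes summed to 456 ± 13.4 CPM in Npas3+/- and 444 ± 8.68 CPM in WT (SD, n = 3 each), a log2 difference of 0.04, and Tcp1 alone averaged 223 ± 3.04 CPM in Npas3+/- and 245 ± 7.94 CPM in WT.

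Mvd (ENSMUSG00000006517.5, chromosome 8, 122433601 to 122443422) encodes the decarboxylase that makes isopentenyl diphosphate. It stood at 62.7, 62.7 and 54.2 CPM in Npas3+/- cortex, against 49.6, 37.1 and 37.2 CPM in WT cortex. Npas3+/- and WT libraries did not overlap, and WT replicate 1 was the highest WT library. The log2 fold change of 0.54 (SE 0.13) was the largest of the arm, with an adjusted p of 0.276 by edgeR's quasi-likelihood test and 0.00957 by DESeq2, the smallest DESeq2 value among the 29 genes.

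In the other 5 genes of the arm the genotypes overlapped. Hmgcs1, the synthase that condenses acetyl-CoA with acetoacetyl-CoA, averaged 792 ± 50.5 CPM in Npas3+/- and 736 ± 134 CPM in WT, and its highest library was WT replicate 1, at 885 CPM. The mevalonate kinase Mvk averaged 37.5 ± 0.359 CPM in Npas3+/- and 35.0 ± 2.54 CPM in WT. Pmvk, the phosphomevalonate kinase that acts between Mvk and Mvd, averaged 32.2 ± 0.985 CPM in Npas3+/- and 32.3 ± 0.79 CPM in WT and was the enzyme with a fold change below 0. The isomerase Idi1 averaged 69.5 ± 10.1 CPM in Npas3+/- and 65.0 ± 14.9 CPM in WT, a log2 fold change of 0.10 (SE 0.17). Fdps, the farnesyl diphosphate synthase, averaged 155 ± 22.1 CPM in Npas3+/- and 138 ± 9.97 CPM in WT, a log2 fold change of 0.17 (SE 0.10) that was 0.045 without Npas3+/- replicate 1. Both counts are uncertain: 17.7% of the windows of Idi1 and 15.5% of those of Fdps also lay in transcripts of other genes, mostly pseudogenes. The exons of Fdps also share 1124 bases with Gm43738 on the same strand.

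All 3 genes that lead from farnesyl diphosphate to lanosterol lay above 0, with a median of 0.22, but 1 library set much of the size for the first. Fdft1 (ENSMUSG00000021273.10, chromosome 14, 63145150 to 63179578), the squalene synthase and first enzyme committed to sterols, stood at 119, 216 and 115 CPM in Npas3+/- cortex, against 105, 94.2 and 98.1 CPM in WT cortex. The genotypes did not overlap, and Npas3+/- replicate 2 stood far above the other 5 libraries. The log2 fold change was 0.60 (SE 0.23; adjusted p 0.371 by edgeR's quasi-likelihood test and 0.343 by DESeq2), and it was 0.24 without that library. Fdft1 overlaps Ctsb on the opposite strand over 774 exonic bases; whether reads were counted by strand is not stated. Ctsb averaged 203 CPM in Npas3+/- and 216 CPM in WT.

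Sqle (ENSMUSG00000022351.14, chromosome 15, 59315077 to 59331192), the squalene epoxidase and a rate-limiting enzyme of the pathway, stood at 202, 214 and 181 CPM in Npas3+/- cortex, against 186, 170.3 and 158 CPM in WT cortex. Npas3+/- replicate 3 lay below WT replicate 1, so the genotypes overlapped. Sqle had a log2 fold change of 0.22 (SE 0.08) and an adjusted p of 0.373 by edgeR's quasi-likelihood test. The lanosterol synthase Lss averaged 93.1 ± 8.59 CPM in Npas3+/- and 85.8 ± 18.8 CPM in WT, where replicate 2 held the highest value of all, 107 CPM. Lss had a log2 fold change of 0.12 (SE 0.15), and leaving out 1 library gave values between 0.013 (without WT replicate 3) and 0.31 (without WT replicate 2).

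All 9 genes of the sterol arm, from lanosterol to cholesterol, lay above 0, with a median of 0.19. In 4 of them the genotypes did not overlap, all higher, against 9.7% of all genes on the higher side. Cyp51 (ENSMUSG00000001467.5, chromosome 5, 4081145 to 4104746), the cytochrome P450 that demethylates lanosterol, stood at 176, 186 and 149.7 CPM in Npas3+/- cortex, against 151, 124 and 124 CPM in WT cortex. Npas3+/- replicate 3 lay just under WT replicate 1, and the other Npas3+/- libraries lay above all WT libraries. The log2 fold change was 0.36 (SE 0.11), with an adjusted p of 0.29 by edgeR's quasi-likelihood test and 0.0651 by DESeq2. Cyp51 overlaps Akap9 on the opposite strand over 166 exonic bases, and Akap9 averaged 467 CPM in Npas3+/- and 484 CPM in WT.

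Tm7sf2 and Lbr both encode sterol reductases that act after Cyp51, and Lbr is also a protein of the inner nuclear membrane. Tm7sf2 (ENSMUSG00000024799.14, chromosome 19, 6062821 to 6068373) stood at 36.2, 39.6 and 37.8 CPM in Npas3+/- cortex, against 35.9, 31.9 and 31.8 CPM in WT cortex. There was no overlap, although Npas3+/- replicate 1 and WT replicate 1 lay close together. The exons of Tm7sf2 share 532 bases with Vps51 on the same strand, so its count is uncertain. Tm7sf2 had a log2 fold change of 0.19 (SE 0.08) and an adjusted p of 0.411 by edgeR's quasi-likelihood test, against a fold change of 0.06 (SE 0.08) for Lbr, which averaged 27.5 ± 1.71 CPM in Npas3+/- and 26.3 ± 1.18 CPM in WT.

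Msmo1, Nsdhl and Hsd17b7 work in turn to remove the remaining methyl groups. Msmo1, the monooxygenase, had the widest spread among them, at 76.4, 58.6 and 41.5 CPM in Npas3+/- cortex, against 59.6, 51.1 and 43.7 CPM in WT cortex. Npas3+/- replicate 3 was the lowest of the 6 libraries and Npas3+/- replicate 1 the highest, and the log2 fold change was 0.19 (SE 0.21). Nsdhl, the X-linked dehydrogenase, stood at 44.2, 41.8 and 40.0 CPM in Npas3+/- cortex, against 38.1, 36.5 and 39.8 CPM in WT cortex. The genotypes did not overlap, with Npas3+/- replicate 3 just above WT replicate 3, and the library with high Xist lay between the other Npas3+/- libraries. Hsd17b7, the ketoreductase, averaged 33.7 ± 4.62 CPM in Npas3+/- and 26.6 ± 5.28 CPM in WT, with overlap and a log2 fold change of 0.34 (SE 0.16; adjusted p 0.455 by edgeR's quasi-likelihood test). Without WT replicate 3 that fold change was 0.21.

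Ebp, Sc5d and Dhcr7 in turn move, add and reduce double bonds of the ring. The X-linked isomerase Ebp was the gene with the fewest reads of the 29, at 6.21 ± 0.555 CPM in Npas3+/- and 5.88 ± 1.12 CPM in WT. Sc5d (ENSMUSG00000032018.14, chromosome 9, 42251595 to 42264256), the desaturase, stood at 69.7, 73.2 and 66.2 CPM in Npas3+/- cortex, against 62.6, 60.4 and 59.5 CPM in WT cortex. All Npas3+/- libraries lay above all WT libraries, and the log2 fold change was 0.20 (SE 0.06; adjusted p 0.323 by edgeR's quasi-likelihood test and 0.165 by DESeq2).

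Dhcr7 (ENSMUSG00000058454.15, chromosome 7, 143823145 to 143848410) encodes the reductase that completes cholesterol and is mutated in human Smith-Lemli-Opitz syndrome. It stood at 57.0, 57.2 and 50.2 CPM in Npas3+/- cortex, against 24.3, 46.8 and 21.8 CPM in WT cortex. There was no overlap, but WT replicate 2 lay near the Npas3+/- libraries while the other WT libraries lay far lower. Its log2 fold change of 0.82 (SE 0.27) was the largest of the 29 genes, with an adjusted p of 0.323 by edgeR's quasi-likelihood test and 0.236 by DESeq2. Without WT replicate 2 the log2 fold change was 1.25 and the adjusted p by edgeR's quasi-likelihood test was 0.0251, the only call made among the 29 genes in any fit by that test that left out a library. Behind these values were 5014, 4401 and 3793 reads in Npas3+/- libraries and 1643, 3929 and 1561 reads in WT libraries.

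**Figure D2:**
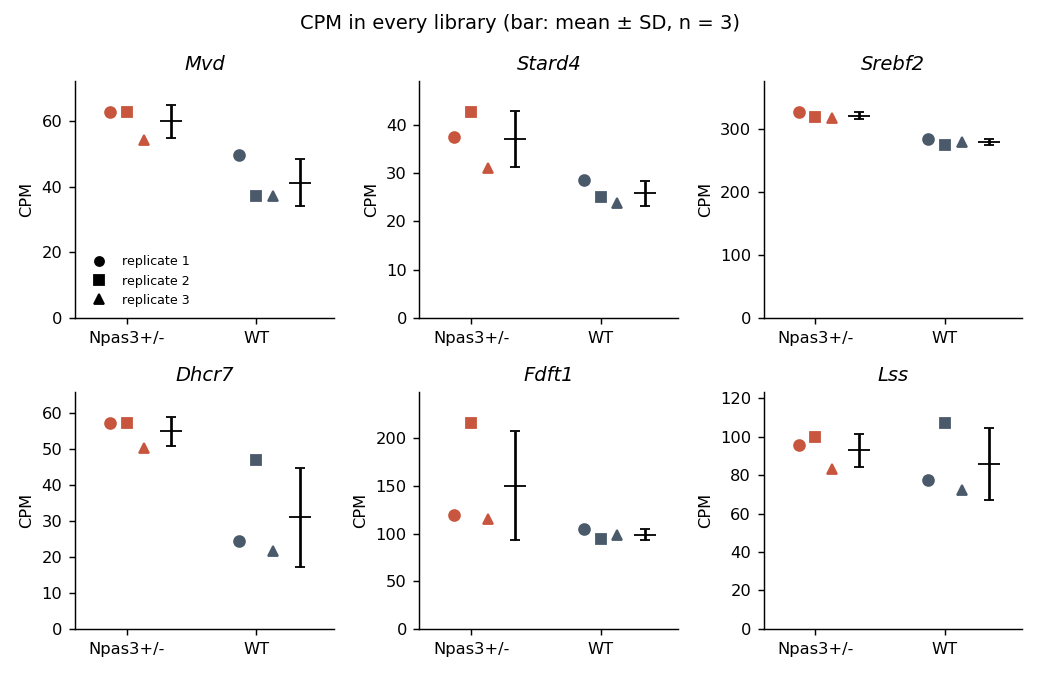
CPM in every library (y axes from 0) for Mvd, Stard4, Srebf2, Dhcr7, Fdft1 and Lss, with Npas3+/- left of WT, marker shapes for replicates and bars for the mean ± SD (n = 3). The genotypes are close but separate in Srebf2 (317 to 326 CPM in Npas3+/-, 275 to 284 CPM in WT), while single libraries stand apart in Fdft1 (216 CPM in Npas3+/- replicate 2) and Dhcr7 (46.8 CPM in WT replicate 2).

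All 5 SREBP regulators lay above 0, with a median of 0.16. Srebf2 (ENSMUSG00000022463.7, chromosome 15, 82147181 to 82205379) encodes SREBP2, the SREBP that mainly drives cholesterol genes. It stood at 326, 319 and 317 CPM in Npas3+/- cortex, against 284, 275 and 279 CPM in WT cortex. The libraries of each genotype lay close together and the genotypes did not overlap. Its log2 fold change was 0.20 (SE 0.04), with the smallest unadjusted p of the 29 genes, 0.00165, which ranked 120 among all genes tested. The adjusted p was 0.27 by edgeR's quasi-likelihood test and 0.0308 by DESeq2. After a correction for the GC content of transcripts the fold change was 0.13, with an adjusted p of 0.411 in edgeR.

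Srebf1 encodes the SREBP1 forms, which mainly drive fatty acid genes. It stood at 32.6, 32.3 and 42.4 CPM in Npas3+/- cortex, against 30.7, 32.3 and 32.8 CPM in WT cortex. Only Npas3+/- replicate 3 stood above the WT range. The log2 fold change was 0.16 (SE 0.12; adjusted p 0.632 by edgeR's quasi-likelihood test), and without that library it was 0.029. After the GC correction it was 0.08.

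Insig1 is itself a target of SREBPs and was the more abundant of the Insig transcripts per kilobase of exon. It stood at 112, 103 and 92.9 CPM in Npas3+/- cortex, against 93.6, 89.2 and 92.6 CPM in WT cortex. Npas3+/- replicate 3 lay among the WT libraries, and the log2 fold change was 0.16 (SE 0.08; adjusted p 0.451 by edgeR's quasi-likelihood test). Insig2 stood at 19.6, 17.6 and 17.3 CPM in Npas3+/- cortex, against 16.6, 16.4 and 16.7 CPM in WT cortex, without overlap. Insig2 had a log2 fold change of 0.14 (SE 0.09), and edgeR's quasi-likelihood test gave an adjusted p of 0.604. Scap, the escort, averaged 112 ± 4.27 CPM in Npas3+/- and 105 ± 0.273 CPM in WT, also without overlap. Its log2 fold change of 0.10 (SE 0.05) was 0.01 after the GC correction, and it overlaps 5830462I19Rik on the opposite strand over 985 bases.

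Of the 5 genes of transport and the LXR arm, Stard4 was the only one without overlap, and the median log2 fold change was 0.02. Stard4 (ENSMUSG00000024378.9, chromosome 18), a cytosolic carrier of sterols and a known SREBP2 target, stood at 37.5, 42.6 and 31.0 CPM in Npas3+/- cortex, against 28.6, 25.0 and 23.7 CPM in WT cortex. All Npas3+/- libraries lay above all WT libraries, with a log2 fold change of 0.52 (SE 0.13), an adjusted p of 0.276 by edgeR's quasi-likelihood test and 0.0181 by DESeq2.

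The other 4 genes of that arm differed by less than the spread between libraries. Npc1 and Npc2, which carry cholesterol out of the lysosome, averaged 50.1 ± 1.11 and 77.7 ± 4.46 CPM in Npas3+/- cortex, against 49.4 ± 2.31 and 78.4 ± 2.79 CPM in WT cortex. Nr1h2 encodes LXR beta, the nuclear receptor that senses oxysterols, and averaged 26.8 ± 2.56 CPM in Npas3+/- and 26.5 ± 3.55 CPM in WT. Mylip, an LXR target that marks lipoprotein receptors for degradation, averaged 16.7 ± 1.01 CPM in Npas3+/- and 15.4 ± 1.69 CPM in WT. The log2 fold changes were 0.02 (SE 0.07) for Npc1, -0.01 (SE 0.07) for Npc2, 0.02 (SE 0.12) for Nr1h2 and 0.12 (SE 0.11) for Mylip.

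Per library, the pathway was highest in Npas3+/- replicate 1 and lowest in WT replicate 3. The mean deviation of log2 CPM from each gene's mean over the 6 libraries, taken over the 29 genes, was 0.15, 0.13 and 0.03 in Npas3+/- replicates 1 to 3, against -0.01, -0.11 and -0.19 in WT replicates 1 to 3. Npas3+/- replicate 3 and WT replicate 1 thus lay close to each other. Of the 29 genes, 10, 8 and 4 had their highest value in Npas3+/- replicates 1, 2 and 3, against 5, 2 and 0 in WT replicates 1, 2 and 3. The lowest value was found in Npas3+/- replicates 1, 2 and 3 for 0, 2 and 1 genes, against 1, 12 and 13 genes in WT replicates 1, 2 and 3.

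The arms did not share 1 pattern over the libraries. The mevalonate arm scored 0.19, 0.06 and 0.03 in Npas3+/- replicates 1 to 3, against 0.09, -0.16 and -0.21 in WT replicates 1 to 3, so that WT replicate 1 lay among the Npas3+/- libraries. The sterol arm scored 0.20, 0.18 and 0.02 in Npas3+/-, against -0.04, -0.10 and -0.27 in WT, with no overlap. The SREBP regulators scored 0.10, 0.03 and 0.09 in Npas3+/-, against -0.07, -0.09 and -0.06 in WT, with no overlap. As a description, the deviations of the enzymes from their genotype means correlated with a median Pearson r of 0.37 over 171 gene pairs across the 6 libraries, and 126 pairs were positive. For all 29 genes the median was 0.26 over 406 pairs. The genes share libraries and depth, so the pairs are not independent.

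**Figure D3:**
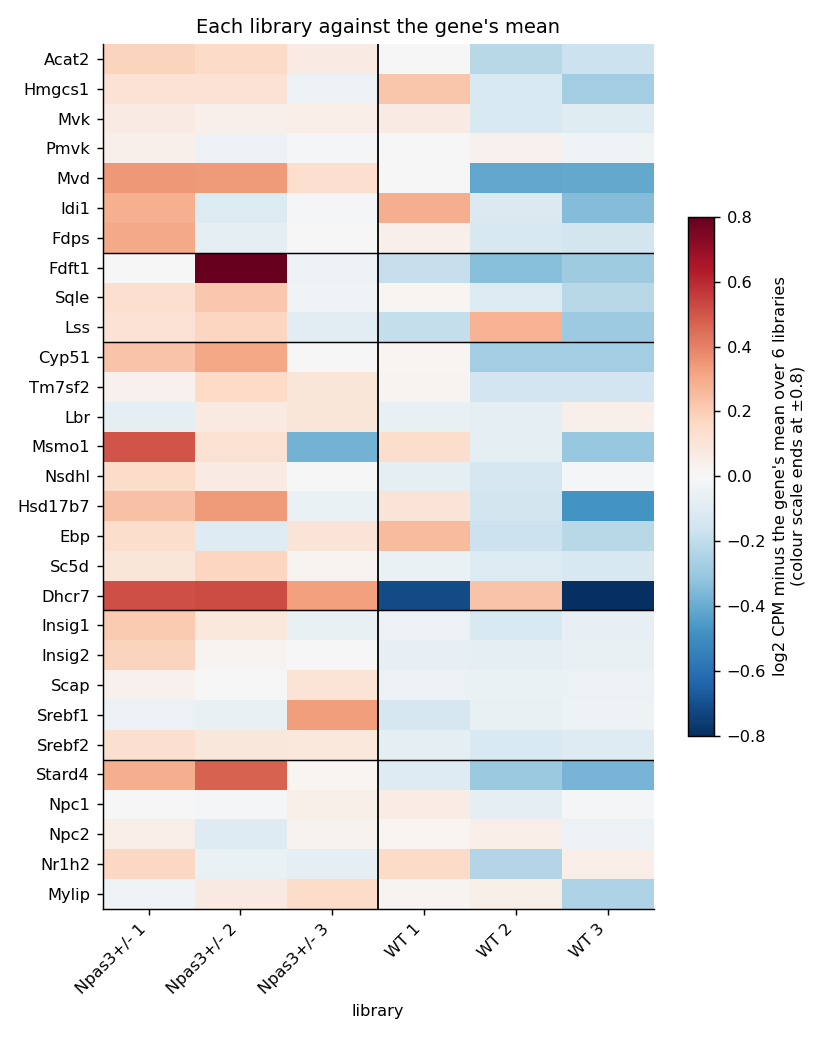
Log2 CPM minus the gene's mean over the 6 libraries, for the 29 genes (rows, in pathway order) and the 6 libraries (columns, Npas3+/- left of WT), on a colour scale that ends at 0.8 in each direction. Most rows are above the mean in Npas3+/- replicates 1 and 2 and below it in WT replicates 2 and 3, with Npas3+/- replicate 3 and WT replicate 1 between them.

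Per kilobase of exon, the enzymes at the start of the pathway were among the most abundant transcripts. Hmgcs1 led with 172 ± 11.0 CPM per kilobase in Npas3+/- and 160.1 ± 29.1 CPM per kilobase in WT. Acat2 followed with 86.9 ± 3.55 CPM per kilobase in Npas3+/- and 72.4 ± 5.80 CPM per kilobase in WT, and Srebf2 with 44.6 ± 0.704 in Npas3+/- and 38.9 ± 0.638 in WT. Below Srebf2, the levels of Fdps, Sqle, Cyp51, Insig1 and Fdft1 lay between 33.2 and 38.6 CPM per kilobase in Npas3+/- and between 23.4 and 32.9 in WT, and neighbours in that order did not differ beyond their spread, except that Fdft1 lay below Insig1 in WT (23.4 ± 1.26 against 29.7 ± 0.753). Srebf1 stood at 6.35 CPM per kilobase in Npas3+/- and 5.67 in WT. Ebp was lowest, at 2.69 ± 0.240 CPM per kilobase in Npas3+/- and 2.55 ± 0.484 in WT. The exon length is the union over all annotated transcripts, which lowers genes with many forms, such as Lss with 10787 bases.

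Related pathways were read from 5 lists of other genes, none with a gene past the threshold in edgeR's quasi-likelihood test. The isoprenoid branch, which turns farnesyl and geranylgeranyl diphosphate into protein anchors, dolichol and ubiquinone, was even. Of its 15 genes, 7 lay above 0, with a median of -0.04. None had an unadjusted p under 0.05 in edgeR, against 12.1% of all genes in either direction. DESeq2 called none, against 3.17% in either direction of the genes to which it gave an adjusted p. In a list of 15 genes such counts do not set the branch apart from all genes. The smallest p-values were those of the farnesyltransferase subunit Fnta (log2 fold change -0.16, SE 0.09), the methyltransferase Icmt (0.13) and the dolichol synthesis gene Nus1 (-0.11).

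Of the fatty acid synthesis genes, which SREBP1 mainly drives, 10 of 13 lay above 0, with a median of 0.09. In edgeR 3 had an unadjusted p under 0.05, all higher, against 6.29% of all genes on the higher side. Acly, the enzyme that makes cytosolic acetyl-CoA from citrate, averaged 302 ± 7.72 CPM in Npas3+/- and 244 ± 12.7 CPM in WT, a log2 fold change of 0.31 (SE 0.05; adjusted p 0.27 in edgeR and 0.00331 in DESeq2). Fasn, the fatty acid synthase, averaged 973 ± 11.8 CPM in Npas3+/- and 830.0 ± 48.2 CPM in WT, a log2 fold change of 0.23 (SE 0.05; adjusted p 0.27 in edgeR and 0.0395 in DESeq2). The elongase Elovl6 averaged 112 ± 8.64 CPM in Npas3+/- and 90.7 ± 7.52 CPM in WT, a log2 fold change of 0.31 (SE 0.08; adjusted p 0.276 in edgeR and 0.0579 in DESeq2). The genotypes did not overlap in 4 of the 13, all higher, against 9.7% of all genes on the higher side. DESeq2 called 2, both higher, against 1.73% on the higher side of the genes to which it gave an adjusted p.

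The genes that carry, cleave and degrade SREBP pathway proteins were mixed, with 7 of 17 above 0 and a median of -0.04. In edgeR 2 higher genes and 1 lower had an unadjusted p under 0.05, the last also called by DESeq2. Over all genes tested, 6.29% had such a p on the higher side and 5.84% on the lower. The ubiquitin ligase Rnf139 averaged 39.7 ± 2.40 CPM in Npas3+/- and 49.2 ± 1.77 CPM in WT, a log2 fold change of -0.31 (SE 0.07; adjusted p 0.276 in edgeR and 0.0259 in DESeq2). The coat proteins Sec24b and Sec24c, of vesicles that leave the endoplasmic reticulum, had log2 fold changes of 0.20 (SE 0.06) and 0.14 (SE 0.05).

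Among genes of cholesterol uptake, transfer and efflux, 11 of 18 lay above 0, with a median of 0.09. In edgeR 3 had an unadjusted p under 0.05, all higher, against 6.29% of all genes on the higher side. DESeq2 called 2, both higher, against 1.73% on the higher side of the genes to which it gave an adjusted p. Gramd1a, which moves cholesterol from the plasma membrane to the endoplasmic reticulum, averaged 306 ± 14.1 CPM in Npas3+/- and 261 ± 9.18 CPM in WT, a log2 fold change of 0.23 (SE 0.05; DESeq2 adjusted p 0.043). The transporters Abca2 and Abcg4 had log2 fold changes of 0.24 (SE 0.06; DESeq2 adjusted p 0.0451) and 0.34 (SE 0.10; DESeq2 adjusted p 0.0503). Of the oxysterol and bile acid enzymes, 5 of 6 were tested and 4 lay above 0, with a median of 0.13. The dehydrogenase Hsd3b7 averaged 6.78 ± 0.95 CPM in Npas3+/- and 4.76 ± 0.54 CPM in WT (log2 fold change 0.51, SE 0.16; adjusted p 0.316 in edgeR), and Cyp46a1, the neuronal enzyme that turns cholesterol into an oxysterol for export, had a log2 fold change of 0.13. Cyp39a1, which acts on that oxysterol, had one of -0.38.

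**Figure D4:**
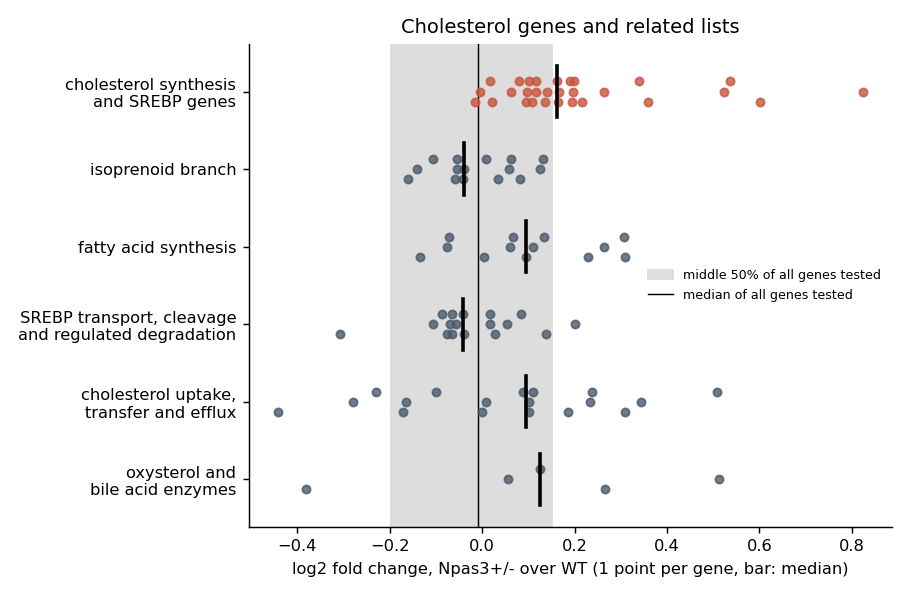
Log2 fold change (Npas3+/- over WT) of each of the 29 genes (top row) and of each gene in the 5 related lists, with 1 point per gene, a bar for the median and a grey band for the middle 50% of all genes tested (-0.20 to 0.15). The 29 genes (median 0.16) lie mostly above 0, while the isoprenoid branch (median -0.04) is spread on both sides.

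Some other measures moved with genotype. Astrocyte markers summed to 307 to 408 CPM in Npas3+/- and 435 to 501 CPM in WT, without overlap, and 7 of 7 had fold changes below 0. Oligodendrocyte lineage markers summed to 306 to 321 CPM in Npas3+/- and 270.5 to 303 CPM in WT, and 7 of 9 had fold changes above 0. Olig2 averaged 45.5 ± 3.47 CPM in Npas3+/- and 35.1 ± 3.41 CPM in WT. In bulk tissue, fewer cells of a type and less RNA per cell cannot be told apart. Markers of microglia summed to 16.2 to 27.7 CPM in Npas3+/- and 22.9 to 27.5 CPM in WT, those of endothelium to 100.2 to 102 CPM in Npas3+/- and 97.6 to 104 CPM in WT, and those of striatum to 91.4 to 127 CPM in Npas3+/- and 89.6 to 213 CPM in WT. Red blood cell markers summed to 206 to 233 CPM in Npas3+/- and 185 to 238 CPM in WT, and choroid plexus markers to 1.10 to 2.07 CPM in Npas3+/- and 0.635 to 0.857 CPM in WT, with each of the 4 at 0 in at least 1 library. No marker of the other cell types of this paragraph was at 0 in any library. Fold changes also moved with GC content: the median over all genes was -0.08 in the fifth of lowest GC and 0.07 in the fifth of highest GC, which held 3 and 7 of the 29 genes. With the GC correction, 26 of the 29 genes lay above 0, with a median of 0.17. The part of cell type makeup in the result was not tested.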

How the data were processed

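RNA sequencing measured gene expression in 3 Npas3+/- and 3 WT cortex libraries. The deposited file holds raw read counts, 1 row per gene. Trimmomatic 0.3.8, HISAT2 2.1.0, featureCounts and the mm10 genome were used, per the submitters' processing notes; the annotation release, the strand setting and the handling of multi-mapping reads were not given there. Genotype and replicate came from the labels; columns marked NP were taken as Npas3+/-, the only genotype besides WT. Identifiers were matched without version to GENCODE M21, which gave symbols for 53274 genes and none for 105.

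Counts as deposited were tested in edgeR 4.0.16 (R 4.3.3) with filterByExpr, TMM scaling and a quasi-likelihood model of genotype, with Benjamini-Hochberg adjustment over all 21244 genes and a threshold of 0.05. The biological coefficient of variation was 26.1%. The SE is the size of the fold change over the square root of F. CPM are scaled by edgeR and given as mean ± SD (n = 3). An exact permutation test of 3 against 3 was not used, since it cannot pass 0.05. The steps were tested on simulated data.

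Alternatives were DESeq2 1.42.0, limma-voom (limma 3.58.1), other scalings and filters, robust moderation, the replicate number as a block, a GC correction (lowess, span 0.4), both together, and each library left out. The members and gene lists were chosen with earlier results of these data known. All 29 genes are named. Values per library are given for the 10 smallest p-values and for Srebf1, Srebf2, Insig1 and Insig2, and for a few others whose libraries were singled out after their values were seen. Each related list names its 3 smallest p-values. Promoter sequences came from RefSeq (GRCm38.p6). The last 20 bases of the window lay in an annotated transcript of the gene on its strand for 22 of 24 genes. No library was a duplicate of another of its genotype.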

Additional observations from a re-analysis of the deposited data

How the results depend on the processing

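Over 16 alternatives, 450 of 464 fold changes of the 29 genes kept their direction and 14 changed sign, 12 of these when 1 library was left out; 22 genes never changed sign. With DESeq2, 3 genes passed the threshold, against 0 in edgeR. Leaving out each library in turn gave 0 to 1 genes past the threshold (Dhcr7 without WT replicate 2) and 24 to 29 higher in Npas3+/-. Between 11 and 20 were without overlap (20 without WT replicate 1, when 30.4% of all genes did not overlap), against 26.4% to 33.4% of all genes in either direction. An unadjusted p under 0.05 was found for 7 to 12, against 7.82% to 13.7% of all genes in either direction. Their median log2 fold change was 0.10 to 0.22 when 1 library was left out. The same range was -0.032 to 0.29 for Idi1, -0.038 to 0.40 for Msmo1, -0.086 to 0.10 for Nr1h2, -0.027 to 0.017 for Pmvk, -0.042 to 0.034 for Npc2, -0.011 to 0.057 for Npc1 and -0.0043 to 0.25 for Ebp. Without a change of sign, the value moved by over 1.5 times from the edgeR fit of all libraries for the genes that follow. They were Hmgcs1 (0.0074 to 0.26), Mvk (0.065 to 0.16), Fdps (0.045 to 0.24), Fdft1 (0.24 to 0.77) and Lss (0.013 to 0.31). Further ones were Lbr (0.036 to 0.11), Hsd17b7 (0.21 to 0.49), Dhcr7 (0.63 to 1.25) and Insig1 (0.094 to 0.23). The last were Insig2 (0.079 to 0.18), Srebf1 (0.029 to 0.23) and Mylip (0.033 to 0.17). Values that moved less from that fit still varied when 1 library was left out. The range was 0.41 to 0.64 for Stard4, 0.29 to 0.46 for Cyp51 and 0.16 to 0.28 for Sqle. For Tm7sf2 it was 0.16 to 0.25, and for Nsdhl 0.10 to 0.18. Nr1h2 was -0.078 with the GC correction and -0.074 with that correction and the replicate block; the cause was not tested. The labels do not say whether replicate numbers pair the libraries. Deviations from the genotype means correlated at r of 0.04, -0.03 and -0.09 between libraries of the same number. With 3 libraries per genotype these values cannot decide whether the libraries were paired. With the replicate block, 0 of the 29 genes and 3 of all genes passed, against 8 without it, and the median was 0.15. In that fit 9 of the 29 had an unadjusted p under 0.05, against 10.2% of all genes in either direction. Without WT replicate 1, 16 genes of all passed. The 3 libraries per genotype limit what can be called. The gene with the fewest reads, Ebp, had 369 to 581 reads in a library, so depth limits it most.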

Other observations

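Some genes near the pathway had 1 or a few libraries far from the rest; they were chosen after their values were seen. Lrp8, a lipoprotein receptor of neurons, stood at 181, 192 and 378 CPM in Npas3+/- cortex, against 168, 177 and 183 CPM in WT cortex. Only Npas3+/- replicate 3 stood apart. Sar1a, a small GTPase of the vesicles that carry SREBPs, stood at 153, 150.0 and 34.9 CPM in Npas3+/- cortex, against 40.2, 163 and 155 CPM in WT cortex. It was low in 1 library of each genotype, Npas3+/- replicate 3 and WT replicate 1. These are the libraries that lay between the genotypes in the mean deviation of log2 CPM over the 29 cholesterol genes. What set these values apart was not tested.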
